A study of Ambystoma mexicanum with 12 samples.

Results

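Forelimb blastemas, the growing mounds that rebuild an amputated limb, of axolotls (Ambystoma mexicanum) treated with retinoic acid (RA) were compared with blastemas treated with the vehicle DMSO, across every gene on the array. The comparison took 8 of the 12 arrays, RA 1 to 4 and DMSO 1 to 4, and all 20035 probe sets other than the Affymetrix controls. The other 4 arrays came from blastemas treated with LE135, a synthetic compound generally described as blocking the retinoic acid receptor beta, and their values are set beside those of RA where they are of use. All animals, vehicle included, lost the forelimb through the distal zeugopod (the far lower arm), were kept singly and received drug or vehicle from day 7, with a change every other day, until blastemas were taken at day 14 with little stump tissue. The juvenile animals averaged 8.8 cm in total length. Each array held RNA pooled from single forelimbs of 4 animals, so the 4 arrays of a treatment were independent pools that used its 16 animals. None of the sources used here states the doses. By the design text, DMSO limbs went on to regenerate normally, whereas RA limbs duplicated structures along the proximodistal axis and LE135 limbs ended truncated. The samples were taken before those outcomes.

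Retinoic acid is made from vitamin A by retinol and retinaldehyde dehydrogenases, is carried in the cell by CRABP proteins, and acts through nuclear receptors (RAR with RXR) that exchange corepressors for coactivators when the ligand binds. Enzymes of the CYP26 family oxidize it and so end the signal. In salamander limbs, added retinoic acid gives a distal blastema a more proximal character, so that it regrows segments that were still present on the stump. MEIS homeobox factors mark the upper arm of vertebrate limb buds, and HOX genes of the highest paralogue numbers mark the hand. LIM homeobox factors such as LHX2 and LHX9 are known for their part in outgrowth at the distal end of the limb bud.

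The values were log2 levels, and a log2 fold change is the RA mean minus the DMSO mean. Rose, fell and changed are used of probe sets with an adjusted p under 0.05 (limma, all 12 arrays in a single fit, Benjamini-Hochberg over all 20035 probe sets). The arrays reached down to 3.06 to 3.15, and levels near this floor say little about a change. A gene was represented by its brightest probe set, which gave 8639 named genes. These are whole blastemas, in which fewer cells of a type and less RNA per cell cannot be told apart.

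DMSO 4 and LE135 4 stood apart. DMSO 4 had a mean correlation of 0.978 with the other arrays of its group and LE135 4 one of 0.986, against 0.989 to 0.996 for the other 10 arrays. Of 11 blastema genes KAZALD1, TNC and FSTL1 were bright in the DMSO samples, with mean levels of 12.64, 13.32 and 13.38. MSX2 stood at 7.28, SALL4 between these, and the other 6 lay lower, from 4.78 for PTN and 5.62 for PRRX1 to 6.76 for MDK. The muscle list (49 genes) varied widely within each group. Its mean centred level ran from -1.17 in DMSO 4 to 0.31 in the DMSO samples and from -0.70 to 0.83 in the RA samples, so the groups overlapped.

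RA changed 528 of the 20035 probe sets, or 2.64%. Of these 325 were higher in RA (1.62% of all tested) and 203 lower (1.01%). Rises were also larger than falls among the changed probe sets. The median rise was 0.702 and the median fall -0.542 on the log2 scale, and 84 rises against 39 falls were over 2-fold. In 526 of the 528 the 4 RA samples did not overlap the 4 DMSO samples, as was also so in 2270 of all probe sets (11.3%). With the array split by level into 3 equal parts, 0.779% of the dimmest, 4.16% of the middle and 2.96% of the brightest probe sets changed. The spread was wider in DMSO, with a median SD of 0.155 against 0.102 in RA. For 15909 probe sets (79.4%) the 95% interval of the change lay within 1.5-fold in either direction.

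Without DMSO 4 and LE135 4 the count rose to 1530 probe sets (7.64%), 826 higher (4.12%) and 704 lower (3.51%), and 519 of the 528 were among them. The share of rises among changed probe sets was 61.6% with all samples and 54.0% without these 2. Leaving out a single sample gave between 231 changed probe sets (without RA 1) and 671 (without LE135 4). Counts also dropped more than 1.5-fold without DMSO 1 (339), DMSO 3 (328), RA 2 (243), RA 3 (316) or RA 4 (285).

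**Figure D1:**
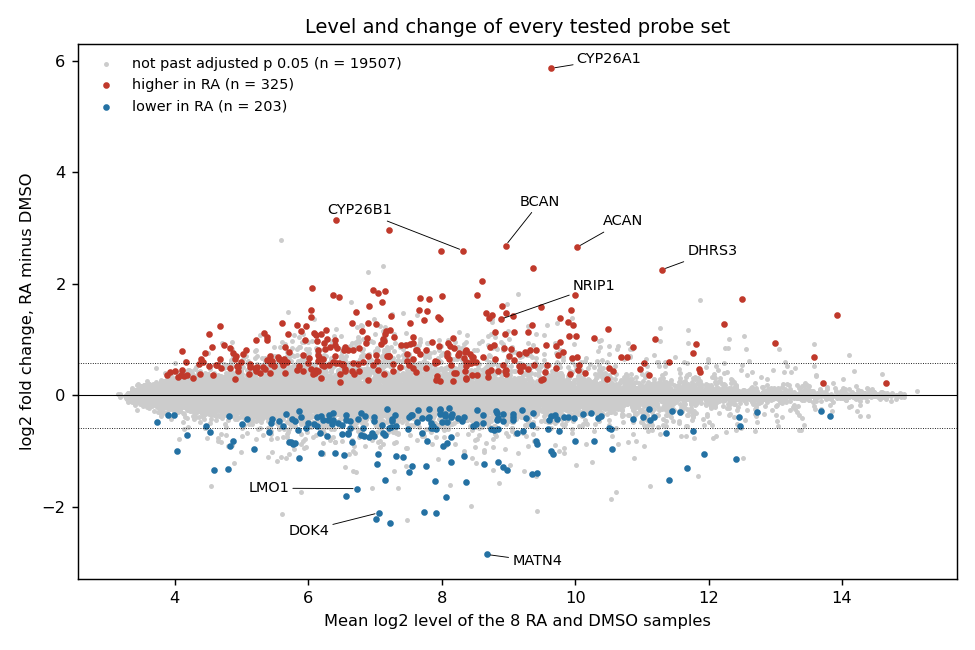
Each point is 1 of the 20035 probe sets, with the mean log2 level of the 8 samples on the x axis and the log2 fold change (RA minus DMSO) on the y axis. Red points (325) were higher and blue points (203) lower in RA at adjusted p under 0.05, and dotted lines mark 1.5-fold. Changes of 2-fold and more lie mostly in the middle of the range of levels and more of them point up than down.

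Among named genes 237 of 8639 changed (2.74%), 132 higher (1.53%) and 105 lower (1.22%), and the median change of all named genes was -0.02. The 62 gene lists covered 2103 of these genes and 98 of the changed ones, which leaves 139 changed genes outside every list. Of the changed probe sets 210 had no gene symbol. The largest of these, axo27297-f_at, rose from 4.84 to 7.98, and axo15307-f_at fell from 8.38 to 6.08. Unnamed transcripts thus held some of the largest changes.

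The list counts are read against the 2.74% of all named genes, and those without DMSO 4 and LE135 4 against 7.78% (3.85% higher and 3.92% lower). RA and DMSO samples did not overlap in 1091 of all named genes (12.6%). Among changed probe sets this was so in 526 of 528, so a gap stated below for a changed gene is no further support. In all, 110 changed genes are named below, and 54 of them stayed past the threshold whichever of the 12 samples was left out. For the other 56 the samples are named beside the gene where they were 6 or fewer. RA 1 was among them for 51 of the 56.

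**Figure D2:**
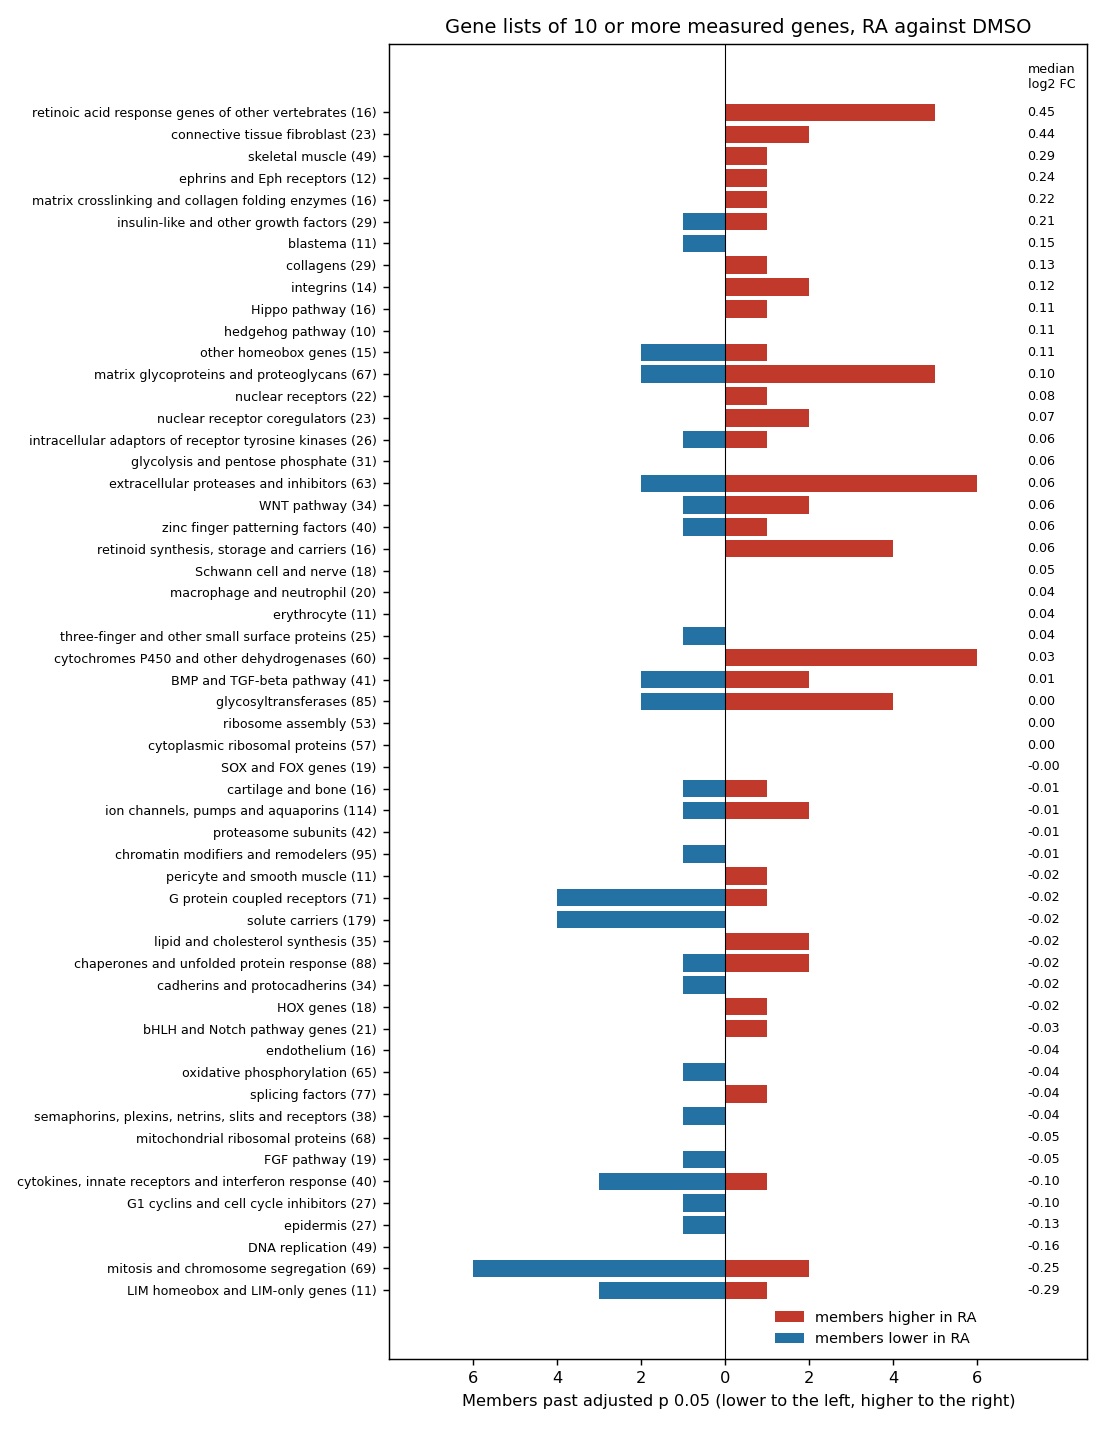
Bars give the number of members of each list (measured genes in parentheses) that were higher (red, to the right) or lower (blue, to the left) in RA at adjusted p under 0.05, for lists of 10 or more measured genes ordered by median log2 fold change. The medians at the right run from 0.45 for retinoic acid response genes to -0.29 for LIM genes. These medians were 0.37 and -0.05 without DMSO 4 and LE135 4. The mitosis list has the most falls (6).

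Of 3 measured enzymes that end the retinoic acid signal 2 rose, and CYP26A1 had the largest rise of all probe sets (5.87, SE 0.79, adjusted p = 0.00347). It stood at 5.05, 8.31, 8.82 and 4.66 in DMSO 1 to 4 and at 12.46, 12.45, 12.63 and 12.77 in RA 1 to 4. The DMSO samples thus fell into 2 high and 2 low values, all far below RA, where the spread was small. CYP26B1 stood at 6.84, 7.62, 7.49 and 6.14 in DMSO and at 9.83, 9.51, 9.56 and 9.56 in RA, again without overlap, and rose by 2.59 (SE 0.34, adjusted p = 0.00292). CYP26C1, the remaining measured family member, was dim (4.00 in DMSO, 3.83 in RA) and did not pass (-0.17).

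Of 16 measured genes of retinoid synthesis, storage and transport, 4 rose and 0 fell. DHRS3, which turns retinaldehyde back to retinol, stood at 9.91, 10.72, 10.72 and 9.36 in DMSO and at 12.34, 12.32, 12.47 and 12.58 in RA. SDR16C5, a retinol dehydrogenase, rose by 1.60 (SE 0.22, adjusted p = 0.0043). The retinoic acid carrier CRABP2 rose by 1.28 (adjusted p = 0.0186) and the retinaldehyde dehydrogenase ALDH1A3 by 1.06 (adjusted p = 0.0229). Enzymes on the way to the ligand and the reductase that works against them were thus both among the rises, with no overlap between RA and DMSO samples in any of the 4 genes. CRABP2 lost its call without RA 1, RA 2 or RA 4 (adjusted p up to 0.0604) and ALDH1A3 without DMSO 3, RA 1, RA 2 or RA 4 (up to 0.0777). The other members did not pass. RDH10, which oxidizes retinol, differed by -0.12, the carrier CRABP1 by -0.30 and ALDH1A1 by 0.57, and ALDH1A2, the main enzyme of the embryo, lay near the floor in both groups (3.36 and 3.43).

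Among 22 nuclear receptors 1 rose. RARG, a receptor for retinoic acid, stood at 8.73, 8.84, 8.60 and 8.44 in DMSO and at 9.37, 9.40, 9.32 and 9.33 in RA, a rise of 0.70 (SE 0.08, adjusted p = 0.00201). Its other probe set differed by 0.08 and did not pass. The immediate-early receptors NR4A1 and NR4A2 had log2 fold changes of -0.81 and -0.48 that did not pass (adjusted p = 0.0769 and 0.117). NR4A1 passed without DMSO 4 and LE135 4 (-0.63, adjusted p = 0.0241).

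Of 23 receptor coregulators 2 rose, and they act in opposite ways. NRIP1, a corepressor that binds receptors when ligand is present, stood at 8.20, 8.33, 8.31 and 7.97 in DMSO and at 9.43, 9.47, 9.70 and 9.66 in RA, a rise of 1.36 (SE 0.10, adjusted p = 0.000166). The coactivator NCOA3 rose by 1.26 (SE 0.22, adjusted p = 0.0138). Neither gene had overlapping samples.

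Of 16 genes that respond to retinoic acid in other vertebrates, 5 rose and 0 fell (31.2%), and the list's median was 0.45. The 5 were CYP26A1, DHRS3, CRABP2, MEIS1 and MEIS2, which other lists also hold. The transglutaminase TGM2 (0.37, adjusted p = 0.0896) and RARRES1 (0.53, adjusted p = 0.288) did not pass, nor did the nuclear receptor NR2F1 (0.27). HOXB1, CDX2 and GATA4 lay near the floor in both groups, at 4.00 or below.

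Of 8 homeobox genes of the TALE class 2 rose and 0 fell. MEIS1 stood at 7.05, 7.07, 7.18 and 7.10 in DMSO and at 8.05, 8.04, 8.03 and 8.06 in RA, a 1.92-fold rise (adjusted p = 0.000499) with little spread within either group. MEIS2 stood at 9.94, 9.93, 10.06 and 9.14 in DMSO and at 10.73, 10.71, 10.91 and 10.85 in RA. Its lowest value was that of DMSO 4, and the rise of 1.03 came to 0.82 without DMSO 4 and LE135 4. Of its other probe sets 1 rose by 0.84 and 1 differed by 0.63 without passing. The remaining 6 did not pass, among them the MEIS partner PBX3 (0.21), TGIF1 (0.40) and IRX3 (-0.07).

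Of 18 measured HOX genes 1 rose and 0 fell, with a median of -0.02. The riser was HOXC5, from 6.22, 6.30, 6.56 and 5.68 in DMSO to 7.11, 7.16, 6.75 and 7.01 in RA (0.81, adjusted p = 0.0489), and its call ended in 10 of the 12 omissions of 1 sample (adjusted p up to 0.139). HOXA13, which marks the hand, stood at 4.41, 4.32, 4.38 and 4.70 in DMSO and at 3.77, 3.39, 3.84 and 3.67 in RA. The groups did not overlap, but the change of -0.78 did not pass (adjusted p = 0.118) and the RA values lay near the floor. It passed when the 8 RA and DMSO samples were fitted alone (adjusted p = 0.0221). HOXD10 also had no overlap, with 6.07 to 6.49 in DMSO and 6.69 to 7.14 in RA, at 0.67 (adjusted p = 0.288). It passed without DMSO 4 and LE135 4 (0.77, adjusted p = 0.0245) and in the 8 samples alone (adjusted p = 0.0466). HOXD11 overlapped, at -0.13. HOXA9, HOXA10, HOXA11 and HOXD13 were not among the named probe sets.

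LIM homeobox and LIM-only genes held 3 falls and 1 rise among 11 measured (36.4%). The list's median was -0.29, and -0.05 without DMSO 4 and LE135 4, where 3 members again fell and 1 rose. Its mean centred level was highest in DMSO 4 (0.46). LMO1, a LIM-only cofactor, stood at 7.26, 7.90, 7.64 and 7.47 in DMSO and at 5.79, 5.49, 6.13 and 6.15 in RA, a 3.2-fold fall. LHX9 stood at 7.85, 7.89, 7.81 and 8.08 in DMSO and at 6.70, 5.95, 6.06 and 6.82 in RA. LHX2 stood at 7.91, 8.66, 8.45 and 8.54 in DMSO and at 7.22, 7.05, 6.98 and 7.26 in RA. In none of the 3 did a RA sample reach the lowest DMSO sample. LMO4 rose by 0.48 (adjusted p = 0.0443), a call that ended in 10 of the 12 omissions (adjusted p up to 0.137), and its second probe set differed by -0.37 without passing. LMX1B, the dorsal determinant of the limb, did not pass (-0.29), nor did the LIM cofactor LDB1 (0.08).

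Of 15 other homeobox genes 1 rose and 2 fell. PAX6, known from eye development, rose by 1.89 (SE 0.27, adjusted p = 0.0047). DLX6, which acts in the limb's apical ectoderm and in skeletal development, fell by 1.38 (SE 0.16, adjusted p = 0.00178), from 7.74 to 8.65 in DMSO to 6.63 to 7.02 in RA. MSX2, a target of BMP signals in limb buds, fell by 0.76 (adjusted p = 0.0287) and lost its call without DMSO 1, DMSO 2, RA 2, RA 3 or RA 4 (up to 0.0871). Among 40 zinc finger patterning factors KLF11 rose by 0.58 (adjusted p = 0.00853), and ZIC5 fell by 1.35 to a dim 3.71 to 4.16 in RA. SALL4, a factor of undifferentiated cells, had RA values of 9.91 to 10.27 above all DMSO values (7.97 to 9.80). Its change of 1.07 did not pass (adjusted p = 0.103), while its second probe set rose by 0.49 (adjusted p = 0.0135). GLI3 did not pass (-0.33).

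No member passed among 7 T-box genes, 19 SOX and FOX genes or 10 hedgehog pathway genes. The forelimb factor TBX5 overlapped between groups, with 7.82 to 9.39 in DMSO and 8.50 to 8.87 in RA. Among 21 bHLH and Notch pathway genes TCF3, a partner of many bHLH factors, rose by 0.53 (SE 0.06, adjusted p = 0.00201). A second TCF3 probe set differed by 0.87 without passing.

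**Figure D3:**
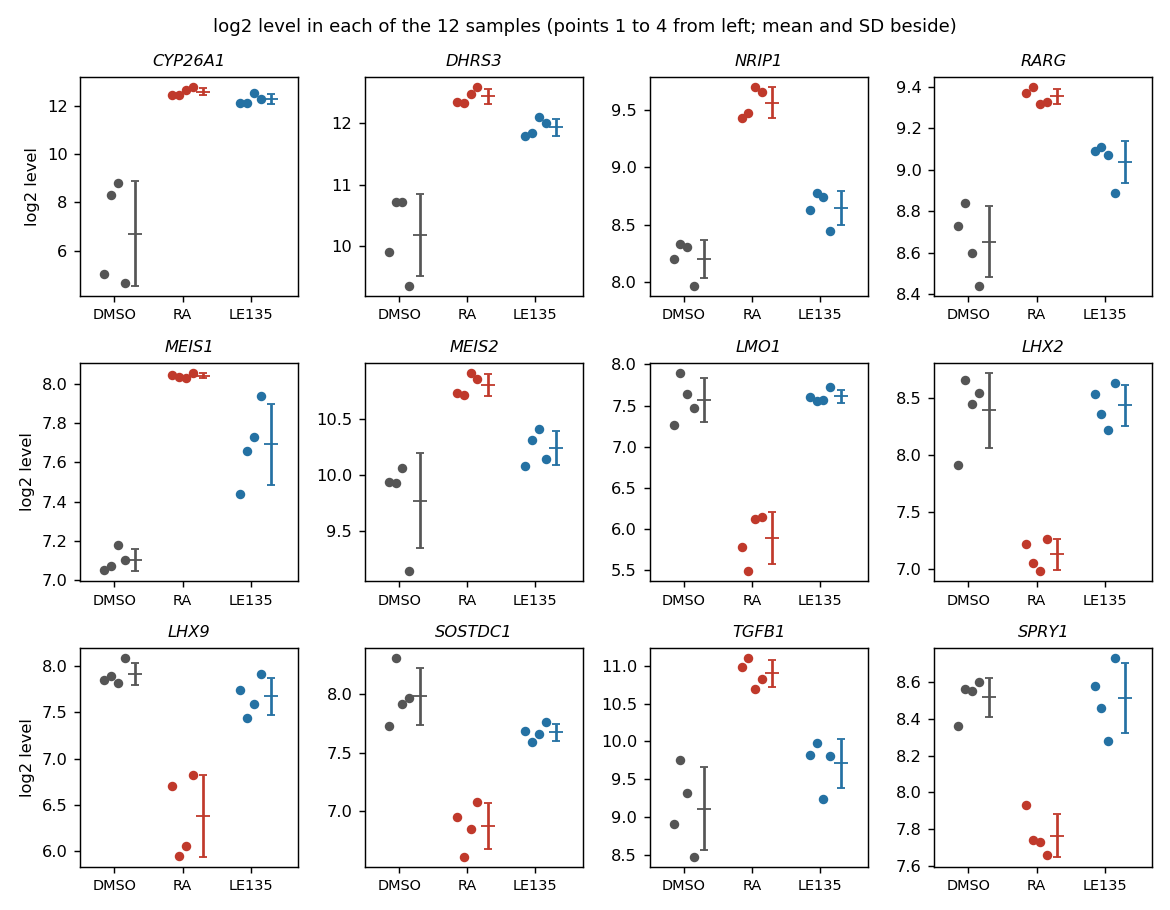
Panels give the log2 level (y axis, own scale per gene) of 12 genes in the 4 DMSO, 4 RA and 4 LE135 samples as points, with the mean and SD of each group beside them. RA and DMSO samples do not overlap in any panel, and LMO1, LHX2 and SPRY1 in LE135 lie at the DMSO levels, at means of 7.61, 8.44 and 8.51.

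Secreted signals and their modulators changed a gene at a time. TGFB1, a growth factor of matrix production, stood at 8.91, 9.75, 9.31 and 8.47 in DMSO and at 10.98, 11.10, 10.69 and 10.83 in RA. Of 41 genes of its pathway and the BMP pathway 2 rose and 2 fell, with a median of 0.01. BMPR1B, a BMP receptor of limb skeletal precursors, fell by 0.82 (SE 0.14, adjusted p = 0.0118). BMP1, a protease that trims procollagen, rose by 0.49 and the ligand BMP7 fell by 0.47 (adjusted p = 0.0462 and 0.0429). These calls ended in 9 and 10 of the 12 omissions (up to 0.139 and 0.117), and BMP1 did not pass without DMSO 4 and LE135 4 (0.46, adjusted p = 0.0556).

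SOSTDC1, a secreted antagonist of BMP and WNT signals, stood at 7.73, 8.31, 7.92 and 7.97 in DMSO and at 6.95, 6.61, 6.85 and 7.08 in RA. This fall of 1.11 (SE 0.12, adjusted p = 0.00132) left a gap between the groups. Of 34 WNT pathway genes 2 rose and 1 fell. The WNT inhibitor APCDD1 rose by 1.13 (adjusted p = 0.0121), and LGR4, a receptor for R-spondins, fell by 0.62 (adjusted p = 0.00758). The kinase GSK3B rose by 0.24 (adjusted p = 0.0419), a call that ended in 10 of the 12 omissions (up to 0.118). Its second probe set did not pass (0.03).

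In the FGF pathway 1 of 19 measured genes changed. The list's median was -0.05, with 7 members above 0 and 12 below. Its mean centred level was -0.02 to 0.16 in DMSO and -0.17 to -0.09 in RA. SPRY1, which FGF signals induce and which restrains them, stood at 8.36, 8.56, 8.55 and 8.60 in DMSO and at 7.93, 7.74, 7.73 and 7.66 in RA, a fall of 0.75 (SE 0.10, adjusted p = 0.00301). The ligands FGF9 (-0.89, adjusted p = 0.0508) and FGF8 (-0.70, adjusted p = 0.503) and the target ETV4 (-0.45, adjusted p = 0.0985) did not pass. FGF9 passed without DMSO 4 and LE135 4 (-0.91, adjusted p = 0.0375).

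Among 29 insulin-like and other growth factor genes, IGFBP6, a carrier that prefers IGF2, rose by 1.75 (SE 0.25, adjusted p = 0.0043), from 6.19 to 7.33 in DMSO to 8.32 to 8.85 in RA. The carrier IGFBP2 fell by 0.83 (adjusted p = 0.0176, 0.0563 without RA 4). The 2 carriers thus moved in opposite directions. Of 16 Hippo pathway genes TAOK1 rose by 0.53 (adjusted p = 0.0355), a call that ended in 8 of the 12 omissions (up to 0.0975).

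DOK4, an adaptor of receptor tyrosine kinases, stood at 7.83, 7.60, 7.78 and 9.24 in DMSO and at 5.79, 5.62, 6.44 and 6.14 in RA. Among changed named genes without overlap between the groups it had the second largest fall (-2.11). Without DMSO 4, its highest sample, and LE135 4 the log2 fold change was -1.74. The exchange factor SOS1, of the same list of 26, rose by 0.33 at a dim 4.11 to 4.30 in RA and lost its call without DMSO 3, RA 1, RA 2 or RA 4 (adjusted p up to 0.0725).

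Cell surface guidance proteins changed in few members. EPHA7, a receptor for A-class ephrins, stood at 7.23, 7.87, 7.56 and 7.41 in DMSO and at 8.59, 8.39, 8.21 and 8.40 in RA (0.88, SE 0.13, adjusted p = 0.0053), while a second, dim probe set did not pass (-0.04). It was the single changed gene of 12 ephrins and Eph receptors. Without DMSO 4 and LE135 4 the count was 5 higher, with EFNB2 (0.50), EPHA5 (0.52), EPHB2 (0.46) and EPHB3 (0.36), and 1 lower, EPHA1 (-0.39), where 7.78% of all named genes changed.

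NRP1, a receptor for semaphorins and VEGF, fell by 0.87 (adjusted p = 0.00762), the sole change among 38 genes of the semaphorin, netrin and slit systems. A second NRP1 probe set did not pass (0.05). PCDH17 fell by 0.42 as the single change among 34 cadherins and protocadherins, a call that ended in 8 of the 12 omissions (adjusted p up to 0.0918). LYPD6, a surface protein of the three-finger family and the single change among 25 small surface proteins, fell by 0.69 (SE 0.08, adjusted p = 0.00201), with 6.76 to 6.96 in DMSO and 6.03 to 6.33 in RA. CD59, of the same family, overlapped between groups, at 8.57 to 9.42 in DMSO and 8.78 to 9.08 in RA. Among 14 integrins the collagen receptor subunits ITGA2 (0.68) and ITGA11 (0.42, at a dim 3.72 in DMSO) rose, with calls that ended in 9 and 10 of the 12 omissions (up to 0.121 and 0.133). ITGA10 (0.10, adjusted p = 0.771), also a collagen receptor subunit, did not pass. Neither did laminin and fibronectin receptor subunits such as ITGA6 (0.16), ITGA5 (0.19), ITGAV (0.02) and ITGA3 (-0.35). Without DMSO 4 and LE135 4 the integrin count was 2 higher and 1 lower, where 7.78% of all named genes changed. The lower member was ITGA3 (-0.46, adjusted p = 0.0276).

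Matrix genes changed in single members, in both directions, and some by large amounts. Of 67 matrix glycoproteins and proteoglycans 5 rose and 2 fell (10.4%). The count was 2 rises and 1 fall in the 8 samples alone and on omission of DMSO 3, RA 1, RA 2, RA 4, LE135 1, LE135 2 or LE135 3. It was 2 rises and 2 falls without DMSO 1 and 3 rises and 1 fall without RA 3. With DMSO 4 and LE135 4 both left out it was 7 rises and 4 falls, where 7.78% of all named genes changed. Brevican (BCAN), a hyaluronan-binding proteoglycan, stood at 7.94, 8.20, 7.88 and 6.43 in DMSO and at 9.87, 10.20, 10.46 and 10.67 in RA. Aggrecan (ACAN), of the same family, stood at 8.98, 9.08, 8.98 and 7.76 in DMSO and at 11.13, 11.16, 11.53 and 11.61 in RA. DMSO 4 was the lowest sample of both, and without DMSO 4 and LE135 4 the rises were 2.29 and 2.34 in place of 2.68 and 2.66. Second probe sets of BCAN (0.10) and ACAN (-0.17) did not pass.

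MATN4, an adaptor protein of cartilage and other matrix, went the other way. It stood at 9.29, 9.77, 9.81 and 11.55 in DMSO and at 7.75, 7.23, 6.97 and 7.05 in RA, and DMSO 4 was its highest sample. Its log2 fold change was -2.86 with all samples and -2.38 without DMSO 4 and LE135 4. Tenascin-N (TNN) fell by 0.90 to a dim 4.20 to 4.57. The small proteoglycans KERA (0.52) and DCN (0.32) rose. The calls of TNN, KERA and DCN ended in 9 to 11 of the 12 omissions (adjusted p up to 0.139).

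Of 16 cartilage and bone genes ACAN rose, MATN4 fell and 14 did not pass. The list lay on both sides of 0, with 7 members above, 9 below and a median of -0.01. The lowest that did not pass were COL9A1 (-1.34), COL9A3 (-1.22) and the cartilage collagen COL2A1 (-1.19, adjusted p = 0.0773), and the highest were BGLAP (0.70), RUNX1 (0.29) and SP7 (0.26). The list's mean centred level ran from -0.33 to 0.60 in DMSO, with DMSO 4 highest, and from -0.44 to 0.07 in RA. The part of these levels in the changes of ACAN and MATN4, which the list holds, was not tested.

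Among 29 collagens COL24A1, a fibrillar collagen, was the single change and rose by 0.72 (SE 0.12, adjusted p = 0.0107). P4HA1, which hydroxylates collagen, rose by 0.47 (adjusted p = 0.0163) among 16 crosslinking and folding enzymes and lost its call without RA 1 or RA 2 (up to 0.0599). The fibroblast list of 23 genes had a median of 0.44, with 20 members above 0, of which FAP and DCN passed. Its mean centred level was -0.42 to 0.00 in DMSO and 0.01 to 0.38 in RA, so that the groups met without overlapping. COL1A1 (0.44), COL6A3 (0.53) and FN1 (1.21) did not pass, with adjusted p of 0.181, 0.106 and 0.187. Without DMSO 4 and LE135 4 the median was 0.34. Its part in the matrix results was not tested.

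Extracellular proteases and their inhibitors held 6 rises and 2 falls among 63 genes (12.7%). The count was 5 rises and 3 falls without DMSO 4 and LE135 4, where 7.78% of all named genes changed. FAP, a serine protease of activated fibroblasts, stood at 8.32, 8.37, 8.21 and 7.49 in DMSO and at 9.78, 9.80, 9.71 and 9.49 in RA. Its relative DPP4 rose by 1.05 (SE 0.16, adjusted p = 0.0056), from 6.61 to 7.06 in DMSO to 7.56 to 7.92 in RA. The membrane sheddase ADAM9 reached 6.64 at most in DMSO (mean 6.38) and stood at 7.52, 7.74, 7.66 and 7.71 in RA. All 3 genes kept RA above every DMSO sample.

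HTRA3, a secreted protease, stood at 4.71, 4.67, 4.70 and 4.75 in DMSO and at 5.44, 5.37, 5.32 and 5.04 in RA (0.59, adjusted p = 0.00983). PRSS23 fell from 9.05 to 9.33 in DMSO to 7.21 to 7.93 in RA (-1.55, SE 0.17, adjusted p = 0.00132). ST14, an epithelial membrane protease, fell by 0.43 (adjusted p = 0.0204) and lost its call without DMSO 1, DMSO 3, RA 1, RA 2 or RA 3 (up to 0.0709). ST14 was also the single change among 27 epidermis genes, whose mean centred level was 0.00 to 0.26 in DMSO and -0.05 to 0.07 in RA.

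Most genes of cell division lay a little lower in RA than in DMSO, and few of them passed singly. Of 69 genes of mitosis and chromosome segregation 6 fell and 2 rose (11.6%), 65 lay below 0 and the median was -0.25. KIF15, a spindle motor, stood at 9.27, 9.29, 9.23 and 9.16 in DMSO and at 8.97, 8.86, 8.94 and 8.83 in RA (-0.33, adjusted p = 0.0168), and lost its call without RA 2 (0.0577) or RA 4 (0.0563). The cytokinesis protein ANLN (-0.40), the spindle checkpoint protein MAD2L1 (-0.40) and HMMR (-0.48) also fell, with calls that ended in 8 or 9 of the 12 omissions (adjusted p up to 0.122). Other probe sets of ANLN (-0.09 and 0.20) and HMMR (-0.13) did not pass. The 2 that rose were TOP2A, which untangles chromosomes, at 0.66, and BIRC5, a subunit of the chromosomal passenger complex, at 0.37 on a dim 4.27 to 4.58 in DMSO. Each lost its call in 8 of the 12 omissions (up to 0.126). Omission of RA 2 alone, or of RA 4 alone, ended the calls of all the mitosis genes named here.

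The mean centred level of the mitosis list was 0.12 to 0.23 in the DMSO samples and -0.06 to -0.01 in the RA samples, and -0.26 to -0.06 in the LE135 samples. DNA replication genes had a median of -0.16, with 45 of 49 below 0, and their mean level was 0.10 to 0.19 in DMSO, -0.05 to -0.02 in RA and -0.16 to -0.06 in LE135. None of the 49 passed. Without DMSO 4 and LE135 4 there were 8 falls in the replication list and 23 falls and 2 rises in the mitosis list. In that setting 3.92% of all named genes fell and 3.85% rose. The growth-arrest gene GADD45A, the single change among 27 G1 cyclins and inhibitors, fell by 0.45 (SE 0.06, adjusted p = 0.00438), from 9.26 to 9.36 in DMSO to 8.81 to 8.87 in RA.

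**Figure D4:**
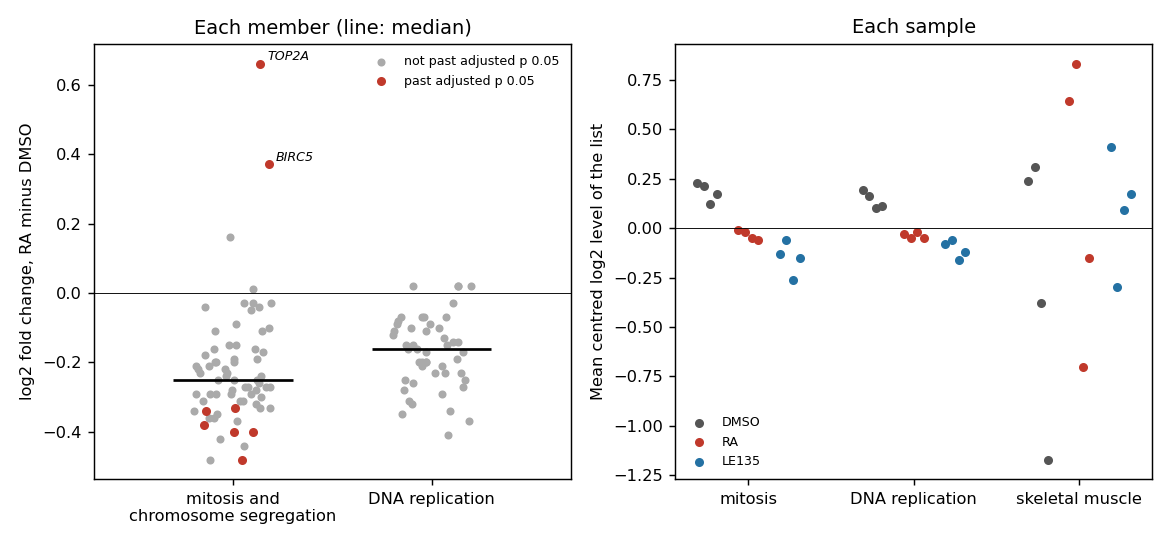
Left, the log2 fold change of each of 69 mitosis and 49 DNA replication genes (red at adjusted p under 0.05), with a line at the list's median (-0.25 and -0.16). Right, the mean centred log2 level of the mitosis, DNA replication and skeletal muscle lists in each sample. RA lies below all DMSO samples in the first 2 lists, and the muscle list spreads from -1.17 to 0.83 with the groups overlapping.

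Core cellular machinery held few changes or none. No member passed among 57 cytoplasmic ribosomal proteins, 53 ribosome assembly factors, 68 mitochondrial ribosomal proteins, 42 proteasome subunits or 31 glycolysis and pentose phosphate genes, nor did any of 3 proteins of the aminoacyl-tRNA synthetase complex. Over all probe sets the 95% interval of the change lay within 1.5-fold for 79.4%. Among these lists it did so for all 57 cytoplasmic ribosomal proteins, 52 ribosome assembly factors, 67 mitochondrial ribosomal proteins and 39 proteasome subunits. For the glycolysis genes, at 24 of 31, the share was near that of all probe sets. Of 65 oxidative phosphorylation genes cytochrome c (CYCS) fell by 0.39, a call that ended in 8 of the 12 omissions (adjusted p up to 0.123), and its second probe set did not pass (-0.03).

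Splicing and chromatin lists were also near the background or below it. Among 77 splicing factors RBM25 rose by 0.38 (adjusted p = 0.0157, 0.0565 without RA 1), with 3 other probe sets that did not pass. Among 95 chromatin genes SMARCAD1, a remodeler, fell by 0.33 (adjusted p = 0.029) but its second probe set rose by 0.57 (adjusted p = 0.0201), so the gene has no settled direction. The fall was lost without DMSO 1, DMSO 3, RA 3 or RA 4 (up to 0.0898). Of 88 chaperone and unfolded protein response genes 2 rose and 1 fell. DDIT3, a factor induced by endoplasmic reticulum stress, stood at 9.34 to 9.57 in DMSO and 8.03 to 8.48 in RA (-1.19), and the disulphide isomerase PDIA5 rose by 0.70 (adjusted p = 0.012). The chaperone HSP90AB1 rose by 0.23, with 2 other probe sets at 0.02 and 0.06. The calls of DDIT3 and HSP90AB1 ended in 8 and 9 of the 12 omissions (up to 0.109 and 0.0974).

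Enzymes that build glycans changed in 6 of 85 genes (7.06%), 4 higher and 2 lower. This count was 8 higher and 3 lower without DMSO 4 and LE135 4, where 7.78% of all named genes changed. B3GNT5, which starts lacto-series glycolipids, rose by 1.53 (SE 0.22, adjusted p = 0.00492). C1GALT1, which makes the core of mucin-type sugar chains, stood at 5.45, 5.21, 5.32 and 5.44 in DMSO and at 6.55, 6.06, 6.79 and 6.95 in RA. B3GNT7, an enzyme of keratan sulphate chains, rose by 1.12 (adjusted p = 0.0143, 0.0514 without RA 1). These 3 extend sugar chains on lipids or proteins, as does B4GALT3, which rose by 0.68 with a call that ended in 11 of the 12 omissions (up to 0.121).

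UAP1, which makes the donor sugar UDP-N-acetylglucosamine, fell by 0.97 and its second probe set by 1.06 (adjusted p = 0.0255 and 0.0227). It lost its call without DMSO 1, DMSO 3 or any RA sample (up to 0.0822). B3GAT1, which makes the HNK-1 epitope, fell by 0.56, a call that ended in 7 of the 12 omissions (up to 0.0861).

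Of 60 cytochromes P450 and other dehydrogenases 6 rose and 0 fell, and 4 of the 6 are the retinoid genes CYP26A1, CYP26B1, DHRS3 and ALDH1A3. DHRS13, a related reductase, stood at 6.45, 6.15, 6.19 and 6.55 in DMSO and at 7.09, 7.38, 6.99 and 7.27 in RA (0.85, SE 0.12, adjusted p = 0.00383), and its second probe set did not pass (0.27). Among 35 lipid synthesis genes the phosphatidate phosphatase LPIN2 rose by 1.08 (adjusted p = 0.00756) and the elongase ELOVL5 by 0.47 (adjusted p = 0.00904). The ELOVL5 samples were tight, at 10.59 to 10.86 in DMSO and 11.19 to 11.26 in RA.

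Of 179 solute carriers 4 fell and 0 rose (2.23%). SLC25A43 (-0.42), a mitochondrial carrier, lost its call without RA 1 or RA 2 (adjusted p up to 0.0563). The glucose transporter SLC2A12 (-0.51) lost it without DMSO 1, DMSO 3, RA 1, RA 3 or RA 4 (up to 0.0708), and the amino acid transporter SLC7A5 (-0.50) without DMSO 1, DMSO 3, DMSO 4, RA 1, RA 2 or LE135 1 (up to 0.0994). SLC35A1, the CMP-sialic acid transporter, fell by 0.36 (adjusted p = 0.0496), a call that ended in 10 of the 12 omissions (up to 0.149). The share is near that of all named genes and all 4 changes were under 1.5-fold.

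Among 114 channels, pumps and aquaporins the ammonium channel RHBG stood at 7.28, 7.03, 7.28 and 6.16 in DMSO and at 8.67, 8.87, 8.64 and 8.50 in RA. The water and glycerol channel AQP3 stood at 8.33, 8.11, 8.40 and 9.82 in DMSO and at 7.01, 7.22, 7.09 and 7.21 in RA. The chloride exchanger CLCN3 rose by 0.39. AQP3 lost its call without any RA sample (adjusted p up to 0.0794), had its highest value in DMSO 4 and had a second probe set at 0.06. CLCN3 lost its call in 9 of the 12 omissions (up to 0.112).

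G protein coupled receptors had 1 rise and 4 falls among 71. EDNRA, an endothelin receptor, rose by 0.81 (adjusted p = 0.0199) and lost its call without DMSO 1, RA 1, RA 2 or RA 4 (up to 0.0708). Beside LGR4, the falls were in the nucleotide receptor P2RY4 (-1.19), GPR160 (-0.64) and the lysophosphatidic acid receptor LPAR3 (-0.42). P2RY4 stood at 9.63 in DMSO 4 and at 8.33 to 8.51 in DMSO 1 to 3, and fell by 0.90 without DMSO 4 and LE135 4. It lost its call without RA 1, RA 2 or RA 4 (up to 0.0748), GPR160 without DMSO 1, DMSO 3 or any RA sample (up to 0.0827), and LPAR3 in 10 of the 12 omissions (up to 0.125).

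Of 40 cytokine, innate and interferon genes 3 innate immune receptors fell and 1 gene rose. TLR2, which senses bacterial lipoproteins, stood at 7.78, 8.01, 8.16 and 7.48 in DMSO and at 6.43, 6.98, 6.63 and 7.04 in RA (-1.09, adjusted p = 0.0143), with a dim second probe set at 0.09. The sensors of RNA TLR3 (-0.71) and TLR8 (-0.37) also fell. TLR3 lost its call without DMSO 1, DMSO 3, DMSO 4, RA 1, RA 2 or RA 3 (up to 0.097) and TLR8 in 9 of the 12 omissions (up to 0.121). TLR7 (-0.58, adjusted p = 0.361) and TLR5, near the floor, did not pass. The shared cytokine receptor subunit IL6ST rose by 0.62 (adjusted p = 0.0257) and lost its call without DMSO 1 or any RA sample (up to 0.0847). Without DMSO 4 there were 3 rises and 2 falls, and without DMSO 4 and LE135 4 there were 3 of each. The interferon regulatory factors IRF1 (1.44, adjusted p = 6.28e-05) and IRF5 (0.57, adjusted p = 0.01) passed without DMSO 4 and LE135 4, but with all samples IRF1, at 1.09 the highest of the list, and IRF5 (0.43) did not (adjusted p = 0.132 and 0.164). No member of the 20 macrophage and neutrophil genes passed, and their mean centred level was -0.18 to 0.15 in DMSO and -0.21 to 0.38 in RA, so the groups overlapped.

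The other cell type lists held few changes. None passed among the lymphocyte, endothelium, Schwann cell and nerve, erythrocyte, pigment cell and keratin lists (7, 16, 18, 11, 8 and 2 genes). Of 11 pericyte and smooth muscle genes desmin alone rose, and MYH11 (-0.84, adjusted p = 0.101) and ACTA2 (-0.43) did not pass. Among 49 muscle genes desmin (DES), an intermediate filament protein of muscle and pericytes, rose from 11.75, 10.75, 11.48 and 11.44 in DMSO to 12.51, 12.35, 12.25 and 12.01 in RA (0.92, adjusted p = 0.0353). It lost its call without DMSO 3 or any RA sample (up to 0.112), and its 2 other probe sets, at 0.03 and 0.85, did not pass. The median of the muscle list was 0.29, and 0.03 without DMSO 4 and LE135 4, whereas DES itself came to 0.95 without them. The muscle genes PVALB (1.38), TNNI1 (1.09) and TTN (0.96) did not pass, with adjusted p of 0.537 to 0.744. Of 11 blastema genes MSX2 fell, and KAZALD1 (0.82, adjusted p = 0.0941), the growth factor MDK (0.68, adjusted p = 0.0531) and PRRX1 (0.52, adjusted p = 0.124) did not pass. MDK passed without DMSO 4 and LE135 4 (0.69, adjusted p = 0.032). The blastema list had 6 members above 0 and 5 below, FGF8 (-0.70) among the latter, and a median of 0.15. Its mean centred level was -0.47 to 0.19 in DMSO and -0.04 to 0.14 in RA, so the groups overlapped.

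Below the 12 largest changes in each direction, the next 15 rises ran from 1.47 to 1.08 and the next 15 falls from -1.13 to -0.83. PAMR1, a secreted peptidase-domain protein known from muscle regeneration, stood at 8.27, 8.78, 8.47 and 7.42 in DMSO and at 9.87, 9.77, 9.42 and 9.76 in RA (1.47, SE 0.24, adjusted p = 0.00996). PLEK2, which links phosphoinositides to actin, rose by 1.38 and by 1.06 without DMSO 4, its lowest sample, and LE135 4. The uroplakin UPK3A, a membrane protein of urinary epithelium in mammals, stood at 9.65 to 10.02 in DMSO and at 10.76 to 11.30 in RA, without overlap. It had 2 other probe sets that did not pass (-0.39 and 0.04), so its rise rests on the brightest over all 12 samples. In DMSO the probe set at -0.39 was brighter, at a mean of 10.59 against 9.89. RBPMS, an RNA-binding protein, rose by 1.15 (adjusted p = 0.00718), and ARID5B, a DNA-binding cofactor, by 1.11 (adjusted p = 0.00762) with a second probe set at 0.13.

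The proglucagon gene GCG rose by 1.30 from a dim 4.60 to 5.46, with a second probe set at 0.04, and INTS3, an Integrator subunit, rose by 1.09. PLEK2 lost its call without RA 1, RA 2 or RA 4 (adjusted p up to 0.0598) and GCG without RA 1 or RA 2 (up to 0.0658). INTS3 lost its call in 9 of the 12 omissions (up to 0.125). NRIP1, CRABP2, ADAM9, NCOA3, C1GALT1, APCDD1, B3GNT7 and LPIN2, described above, made up the other 8 of these 15 rises.

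Among the falls of this range PMCH, the precursor of melanin-concentrating hormone, fell by 1.13 (SE 0.20, adjusted p = 0.0121), from 5.96 to 6.77 in DMSO to 5.11 to 5.49 in RA. SLITRK6, a membrane protein of neurons and the inner ear, stood at 9.73 to 9.99 in DMSO and at 8.93 to 9.13 in RA, and of its 2 other probe sets 1 fell by 0.56 and 1 differed by -0.37 without passing. DNER, a transmembrane Notch ligand of neurons, stood at 6.78 to 7.40 in DMSO and 5.91 to 6.09 in RA.

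Others were CDO1, which degrades cysteine (2.01-fold lower, adjusted p = 0.00853, second probe set -0.57 and not past the threshold), SNTB1, a syntrophin of the dystrophin complex (-0.85, adjusted p = 0.00706), and TMEFF2, a membrane protein with follistatin domains (-0.86). VSTM2A, a secreted immunoglobulin-domain protein, fell by 0.97, UBE2M, a conjugating enzyme of NEDD8, by 0.88, and PHLDA2, a pleckstrin-domain protein, by 0.83. TMEFF2 lost its call without RA 2 (adjusted p = 0.0517) and VSTM2A without RA 1 or RA 2 (up to 0.0574). DNER, PHLDA2 and UBE2M lost theirs in 8, 8 and 10 of the 12 omissions (up to 0.107, 0.115 and 0.143). SOSTDC1, TLR2, UAP1, TNN, NRP1 and IGFBP2, described above, completed these 15 falls.

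**Figure D5:**
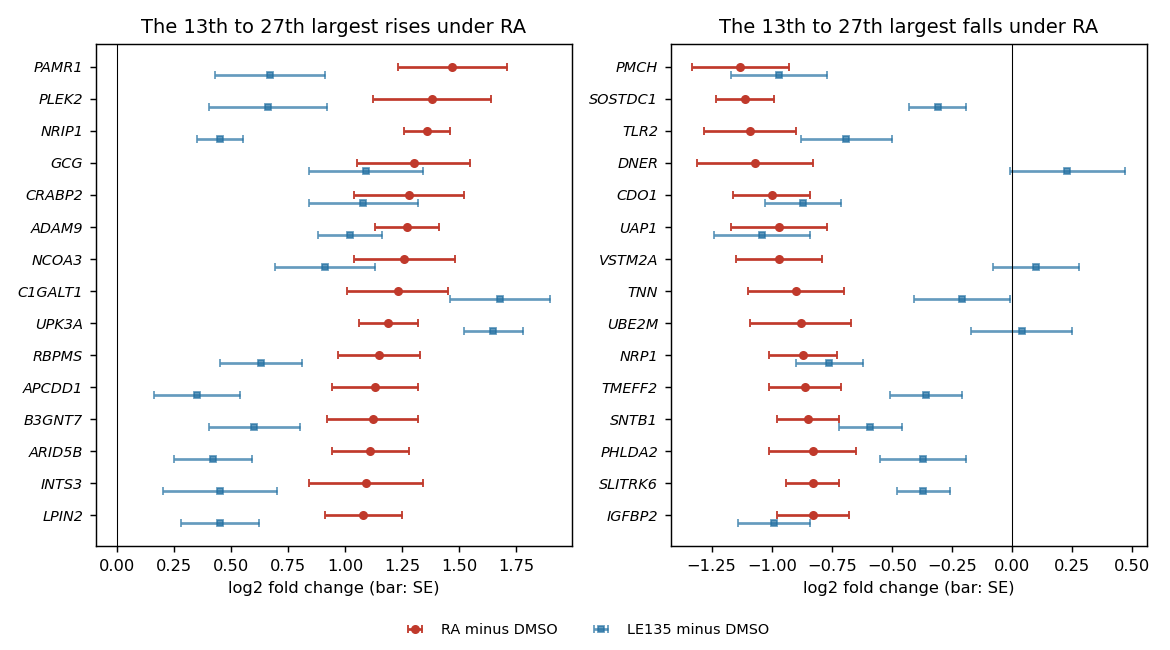
Points give the log2 fold change (x axis, bars are SE) of the genes with the 13th to 27th largest rise (left) and fall (right) under RA, for RA minus DMSO (red circles) and LE135 minus DMSO (blue squares), which share the 4 DMSO samples. In DNER, VSTM2A and UBE2M the LE135 values are 0.23, 0.10 and 0.04, beside RA values of -1.07, -0.97 and -0.88, while in UPK3A (1.65), C1GALT1 (1.68), UAP1 (-1.04) and IGFBP2 (-0.99) LE135 lies as far from 0 as RA or farther. For none of these 7 was a difference called by the direct contrast of the drugs.

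RA and LE135 samples were compared directly to see which of these changes differed between the drugs. That contrast called 4 of 20035 probe sets (0.02%), and all 4 stood for named genes (0.0463% of those). LMO1 was lower in RA than in LE135 by 1.73 (SE 0.16, adjusted p = 0.00518), with 7.56 to 7.73 in LE135. LHX2 differed by -1.31 (adjusted p = 0.0185), SPRY1 by -0.75 (adjusted p = 0.0485) and NRIP1 by 0.91 (adjusted p = 0.0184). LMO1 kept this call whichever sample was left out. The call of LHX2 ended without DMSO 3, RA 1, RA 2, RA 3, RA 4, LE135 1 or LE135 2 (adjusted p up to 0.124), that of NRIP1 without RA 2, RA 3, RA 4 or LE135 1 (up to 0.123), and that of SPRY1 in 9 of the 12 omissions (up to 0.197) and with the sample number as a block (0.0733). LMO1, LHX2 and SPRY1 had LE135 values at the level of DMSO, and NRIP1 lay between DMSO and RA, at 8.45 to 8.78. For the other genes named above no difference between the drugs was called, and CYP26A1 was among them, with 12.10 to 12.54 in LE135, 5.55 above DMSO (adjusted p = 0.00524). Among these, LHX9 (-1.29, adjusted p = 0.0652), SOSTDC1 (-0.80, 0.0825), ZIC5 (-1.13, 0.0825) and VSTM2A (-1.07, 0.0903) had the smallest adjusted p.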

How the data were processed

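The members, gene lists and tests were chosen with earlier results of these data known, and nothing here is independent of them. The deposited values are log2 expression per probe set made with RMA, per the submitters' processing notes, in a version that is not stated there. Of 20080 deposited probe sets 45 Affymetrix controls were left out. No probe set was removed as dim, and no 2 arrays were identical. Symbols came from the platform annotation (10951 probe sets with 1 symbol, 9084 with none), and all 8639 were found in the RefSeq gene table. A gene was read from its brightest probe set (by the mean of all 12 samples), a choice that bears on 1740 genes. Drug samples enter that mean, so a rise can favour the probe set that shows it. In DMSO alone another probe set was brighter for UPK3A, ARID5B, LMO4, RBM25 and HSP90AB1, all named as rises. No genome, promoter or protein sequence was used, and the motif search that the plan foresaw was not run.

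A model with a mean per treatment was fitted with limma 3.58.1 (R 4.3.3, 9 residual degrees of freedom), with moderated contrasts of RA minus DMSO and RA minus LE135. Adjusted p and SE refer to these. The fit was tested on simulated data in which a probe set had the same spread in all 12 arrays and no array stood apart. Such data cannot show how the fit handles DMSO 4 and LE135 4. Named were the 1st to 3rd and the 13th to 27th largest rises and falls among changed genes whose RA and DMSO samples did not overlap, up to 4 changed members of each list and direction by smallest p, and a set of limb and retinoid genes whatever their values. NR4A1, NR4A2, FGF8, FGF9, ETV4 and other members that did not pass were named as examples of their lists after their values were seen, and so were the 4 further Eph genes, IRF1 and IRF5. Muscle myosins, integrins and heat shock proteins were matched by symbol, and unrelated genes caught by the first pattern were taken out afterwards. The blastema list holds MDK, MMP9 and PTN, which were not among the blastema markers of the plan. A further list is not reported here. A mean centred level is the mean over a list of the log2 values, each after subtraction of its gene's average across all 12 samples.

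The sample numbers 1 to 4 are shared by the treatments, but nothing in the labels ties equal numbers together, so they did not enter the main fit. The precision is limited by the 4 arrays per group. Alternatives were the sample number as a block, the 8 RA and DMSO samples alone, other variance priors, an ordinary ANOVA, a filter on dim probe sets, 2 other scalings, array weights, another choice of probe set, omission of each sample and omission of DMSO 4 and LE135 4 together.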

Additional observations from a re-analysis of the deposited data

Results flagged for a closer look

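In a search of 242 sets of 4 values (the RA and the DMSO samples of each of the 121 genes named by the rule), 16 held a sample far from the other 3, where chance flags about 1 in 20 groups. DMSO 4 was that sample in 7. It was low in ACAN (7.76 against 8.98 to 9.08), MEIS2 (9.14 against 9.93 to 10.06), PLEK2 (6.35 against 7.51 to 7.67) and RARRES1 (5.42 against 5.92 to 5.97). It was high in DOK4 (9.24 against 7.60 to 7.83), P2RY4 (9.63 against 8.33 to 8.51) and HOXD10 (6.49 against 6.07 to 6.14).

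The other DMSO samples that stood apart were DMSO 1 in TNN (4.57), DMSO 2 in ZIC5 (5.72) and DMSO 3 in CYCS (11.18, just above the highest RA value of 11.15). In RA they were RA 1 in CYP26B1 (9.83) and ELOVL5 (11.26), RA 2 in CDO1 (9.02) and TGM2 (5.62), RA 3 in ITGA11 (3.90) and RA 4 in DPP4 (7.56). TNN in DMSO 1 equalled its highest RA value to 2 decimals.

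The effect of RA differed from that of LE135 in 4 genes by the direct contrast of the drugs (limma, adjusted over all probe sets), by -1.73 in LMO1, -1.31 in LHX2, -0.75 in SPRY1 and 0.91 in NRIP1. In each of the 4 genes no RA sample overlapped a LE135 sample. The genes were picked by that contrast of the same samples, so the gap is no further support. LMO1 alone kept its call whichever sample was left out.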

How the results depend on the processing

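The all-sample counts were 528 changed probe sets, 296 of them over 1.5-fold, 237 named genes and 4 probe sets different between RA and LE135. They stayed within 1.5 times under the trended and robust prior, the filter on dim probe sets and both other scalings, and the median of all changes moved by under 0.1 in every setting. The array medians lay close together (6.608 to 6.698), so a steady median of changes is no check of the settings. The 8 samples alone gave 340 changed probe sets. The ordinary ANOVA gave 343, 175 over 1.5-fold and 2 between drugs. Array weights, which gave DMSO 4 a weight of 0.168 and LE135 4 one of 0.259, gave 1362, 469, 611 and 186, with 51.3% rises. Leaving out both samples gave 1530, 484, 672 and 43. Omission of a single sample gave 231 to 671, 164 to 346, 104 to 313 and 1 to 13. With the probe set of highest variance 270 named genes changed. The sample number as a block gave 597, 343, 261 and, between drugs, 11, and 430 of the 528 were kept, while matrix glycoproteins and proteoglycans held 2 rises and 1 fall. Equal numbers were not shown to pair samples, since deviations of RA and DMSO samples of the same number correlated at 0.0397, 0.179, 0.0866 and 0.0881 and only RA 2 and RA 4 correlated best with their own number. Of the 110 changed genes named, 16 did not pass with the block, 32 did not in the 8 samples, where HOXA13 and HOXD10 passed, and 1 (BMP1) without DMSO 4 and LE135 4. Directions turned for CD59 (0.02 with quantile normalization repeated, 0.09 with weights, 0.14 without DMSO 4 and LE135 4, -0.14 to 0.14 on omission of 1 sample), HOXD11 (0.01 without DMSO 4 and LE135 4, -0.30 to 0.01 on omission), TBX5 (-0.01 with the other probe set, -0.11 to 0.42 on omission) and SMARCAD1 (0.57 with the other probe set). Of these 4 SMARCAD1 had passed, and for it the setting swaps in a probe set of the opposite sign. The causes of the other shifts were not tested. Signal near the floor of the arrays limits what can be said of ALDH1A2, CYP26C1, RARA, HOXA13 and ITGA11.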
